A study of Mus musculus with 6 samples.

Results

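Dux, the double homeobox gene that the annotation calls Duxf3, was followed here together with 9 other genes of the 2-cell embryo: Zfp352, Tcstv1, Tcstv3, Tmem92 and the Usp17l copies Usp17la, Usp17lb, Usp17lc, Usp17ld and Usp17le. The 10 genes were taken by symbol from a count table of 31641 genes, and all 10 had a row. Poly(A) RNA of E14, a mouse embryonic stem cell line, was sequenced in 6 libraries. The 3 KD libraries carry the genotype Nat10 KD and were grown with Dox (doxycycline), and the 3 CON libraries carry Nat10 WT and were grown without Dox. The drug and the knockdown of Nat10, an RNA cytidine acetyltransferase, cannot be told apart in this design. The sources used here do not give the knockdown construct, the dose, the time on the drug or the number of clones.

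Mouse embryos switch on their own genome at the 2-cell stage, and Dux is one of the first genes to be transcribed there. Its protein binds DNA through a pair of homeodomains and activates a set of genes and MERVL retroviral elements that are silent in most later cells. In cultures of embryonic stem cells a small, changing minority of cells enters a related state, called 2C-like, in which Dux, Zscan4 and the genes described here are expressed together. A bulk library averages over all cells, so more cells in that state and more RNA per cell cannot be told apart.

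The libraries held 33770755 to 39524273 counts in KD and 35304394 to 39450202 counts in CON. Levels are CPM, counts scaled to the TMM-adjusted size of their library, and fold changes are KD over CON from edgeR's quasi-likelihood test, with p-values adjusted by Benjamini-Hochberg over the 18019 genes tested and a threshold of 0.05. Nat10 had 1100, 1164 and 1050 counts in the KD libraries, against 4960, 5496 and 4877 in the CON libraries, and its level fell 5.44-fold (edgeR adjusted p = 4.21e-14). The replicates of a group differed by more than independent counts would, most of all KD-3 from the other KD libraries. Chi-square over degrees of freedom was 14.3 and 10.7 for KD-3 against KD-1 and KD-2, and 2.67 to 4.96 for the other pairs. Mates of a pair counted separately would raise these values. Whether the replicates of a group were separate cultures is not stated, and the p-values then reflect only how these libraries vary, which may be technical. Means are given ± SD with n = 3 libraries per group.

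Of the 10 genes, 9 had enough counts to be tested. Of these, 5 rose in KD (Duxf3, Tcstv3, Tmem92, Usp17la and Usp17le), 0 fell and 4 did not pass (Zfp352, Usp17lb, Usp17lc and Usp17ld). Tcstv1 was not tested. Over all genes tested, 63% passed, 32.2% rose and 30.8% fell, so that a call in KD is common in these libraries. The median log2 fold change was 0.76 over the 9 genes and 0.02 over all genes tested. The 3 KD libraries lay above the 3 CON libraries for 6 of the 9 genes (the 5 that rose and Usp17ld), and they did so for 34.4% of all genes tested. They lay below the CON libraries for 0 of the 9, and for 32.8% of all genes tested.

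**Figure D1:**
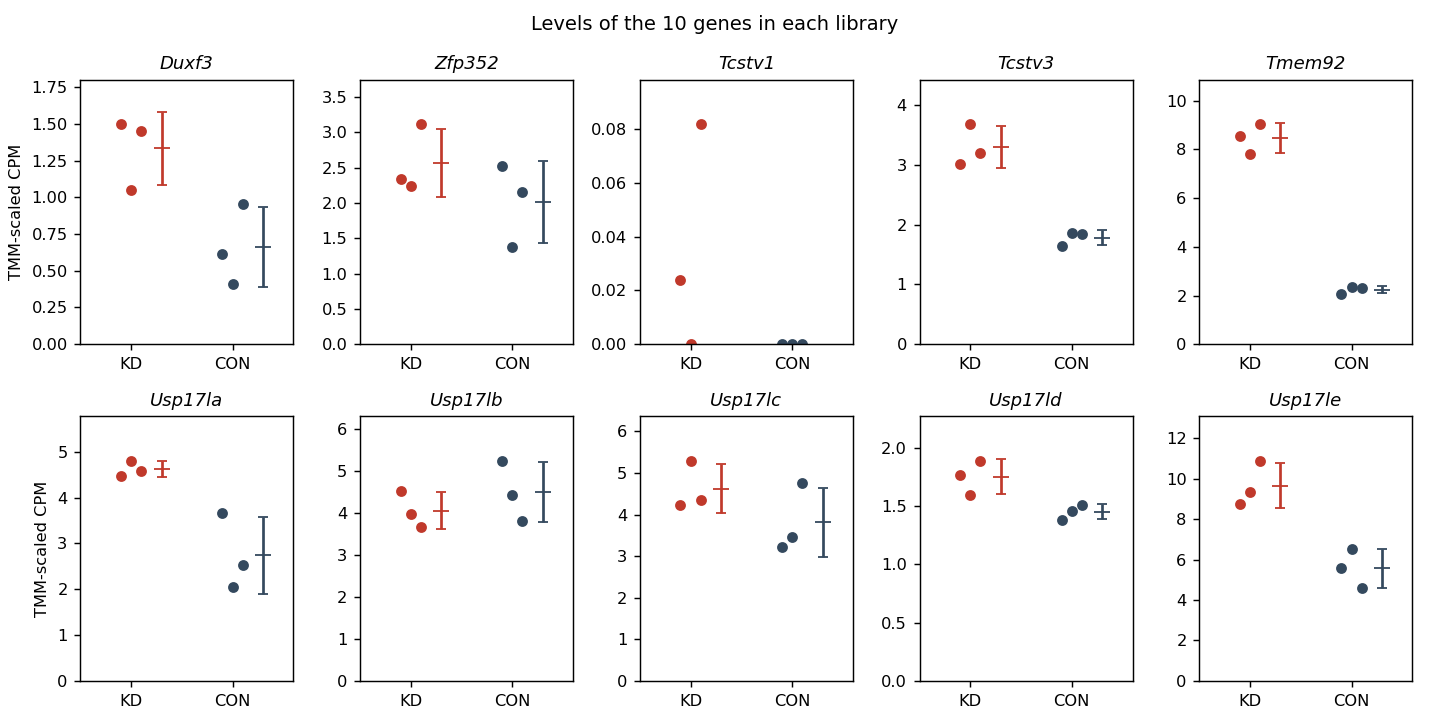
Level of each of the 10 genes in CPM (vertical axes, each from 0), with 1 point per library, KD on the left and CON on the right of each panel; the bar beside each group is its mean ± SD (n = 3), left out for Tcstv1, which was not tested. The KD points of Duxf3, Tcstv3, Tmem92, Usp17la, Usp17ld and Usp17le all lie above the CON points, and those of Zfp352, Usp17lb and Usp17lc overlap with them.

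In KD, 3 of the 10 genes were above the median tested gene and the other 7 below it, and in CON all 10 were below it. Per kilobase of exon, which allows levels of different genes to be compared, Usp17le stood first in KD at 4.86 ± 0.552 CPM per kb, followed by Tcstv3 at 4.23 ± 0.454 and Tmem92 at 3.87 ± 0.287. Duxf3 ranked 9 at 0.495 ± 0.0914 CPM per kb, and only Tcstv1, at 0.0252, was lower. The median tested gene had 3.81 CPM per kb in KD and 3.62 in CON. Duxf3 was at percentile 19.7 of tested genes in KD and 12.5 in CON, and Tmem92 was at percentile 50.3 in KD and 31.2 in CON.

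The order of the levels per kilobase was not the same in the groups. In KD it ran Usp17le, Tcstv3, Tmem92, Usp17lb, Usp17lc, Usp17la, Zfp352, Usp17ld, Duxf3 and Tcstv1, and the ranges over libraries overlapped between Usp17le and Tcstv3, between Tcstv3 and Tmem92, and between Usp17lc and Usp17la. In CON it ran Usp17lb (2.88 ± 0.463 CPM per kb), Usp17le (2.8 ± 0.495), Tcstv3 (2.29 ± 0.159), Usp17lc, Tmem92, Usp17la, Zfp352, Usp17ld, Duxf3 (0.245 ± 0.101) and Tcstv1 at 0. There the neighbours from Usp17lb to Tcstv3 and from Tmem92 to Usp17ld overlapped. Tmem92 ranked 3 in KD and 5 in CON, and Usp17lb ranked 4 in KD and 1 in CON.

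Duxf3, the regulator among the 10 genes, was scarce in both groups and rose in KD. It lies on chromosome 10 (GRCm38, 58229979 to 58232675, reverse strand, a single exon of 2697 bases in GENCODE M21), within a tandem array of Dux copies and fragments. Its counts were 63, 45 and 53 in the KD libraries 1 to 3, against 21, 15 and 31 in the CON libraries in the same order. The levels were 1.5, 1.05 and 1.45 CPM in KD and 0.616, 0.412 and 0.953 CPM in CON. The lowest KD library was just above the highest CON library, and the groups did not overlap. The mean was 1.33 ± 0.247 CPM in KD and 0.661 ± 0.273 CPM in CON, a rise of 2.03-fold (95% interval 1.25 to 3.29). On the log2 scale this was 1.02 with an SE of 0.328 (edgeR adjusted p = 0.0133). The call rests on CON-2, the lowest library: without it the log2 fold change was 0.76 and the adjusted p 0.0648, in a range from 0.00341 to 0.0648 over all alternatives. With 67 counts over the 3 CON libraries, its SE was the largest of the 9 tested genes.

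The promoter of Duxf3 is shown because it is the regulator's own control region and because its protein recognises a motif with arms TGATT and AATCA set 1 base apart. The stretch runs from 250 bases before to 50 after the RefSeq start (GRCm38.p6, chr10:58233040-58233339, reverse strand), and the capitals mark its single exact arm of that motif. Set 1 base after this arm is aatcc, which differs from AATCA only in its last base. How many promoters hold such a near match was not counted.
Duxf3: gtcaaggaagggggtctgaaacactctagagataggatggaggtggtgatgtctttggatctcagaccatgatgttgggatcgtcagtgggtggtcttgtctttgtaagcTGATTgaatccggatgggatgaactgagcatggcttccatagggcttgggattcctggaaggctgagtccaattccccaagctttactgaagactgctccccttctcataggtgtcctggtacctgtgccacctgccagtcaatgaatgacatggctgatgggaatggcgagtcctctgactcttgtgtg
The RefSeq start lies upstream of the GENCODE M21 gene. The whole motif, searched on both strands, was in 0 of the 6 promoters of the 10 genes that the RefSeq table holds, and in 11 of 32851 promoters overall (0.033%). A single arm, TGATT or AATCA, was in 1 of the 6 (Duxf3) and in 37.022% of all promoters of that length. These counts say only which letters are in the windows.

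The sequence of Duxf3 is shared in part with its array. Of all 100-base windows of its transcripts, 24.2% occur in another annotated transcript, most of them in AW822073 (16.5% of windows) and Gm10807 (12.3%). Of 50-base windows it is 47% (32.5% in AW822073), and since the read length is not stated, both sizes are given. AW822073, the largest of the other array genes by counts, had 30, 43 and 53 counts in KD and 19, 23 and 20 in CON. Its KD libraries lay above its CON libraries, but the difference (1.74-fold, log2 fold change 0.8, SE 0.34) did not pass (edgeR adjusted p = 0.052). It passed under scaling by library size only (log2 fold change 1.03, adjusted p = 0.0148) and without KD-1 (1.01, adjusted p = 0.0199). Gm4981, Gm10807 and Gm19459 had at most 21 counts in any library and were not tested.

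The sum over the array does not depend on which copy a shared read was assigned to. It would change if shared reads were dropped or counted for several copies, and their treatment is not stated. Duxf3, AW822073, Gm4981, Gm10807 and Gm19459 together had 116, 115 and 129 counts in KD and 50, 48 and 61 in CON. In CPM the sum was 2.99 ± 0.463 in KD and 1.55 ± 0.287 in CON, a ratio of 1.93. Without Duxf3 the sum was 1.66 ± 0.407 CPM in KD and 0.894 ± 0.0375 CPM in CON, a ratio of 1.86. Both sums were higher in each KD library than in each CON library. Of the Dux family and locus list (14 entries, of which 5 had a row), 2 genes were tested, and 0 rose, 1 fell and 1 did not pass. The one that fell was Crxos, a homeobox gene of the early embryo on another chromosome, at 9.7 ± 0.915 CPM in KD and 14.8 ± 1.17 CPM in CON (1.53-fold lower, edgeR adjusted p = 7.19e-05).

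**Figure D2:**
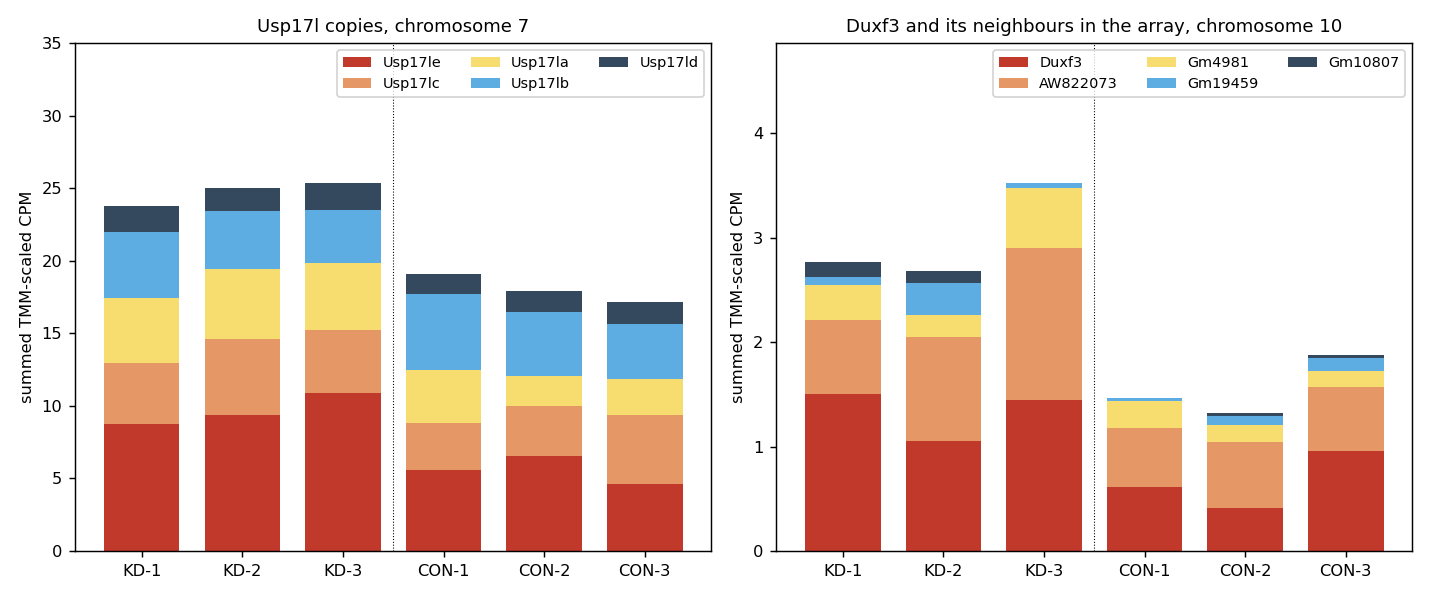
Summed level in CPM (vertical axes, from 0) of the Usp17l copies and of the Dux array in each library (KD bars left of CON bars), with the copies stacked. The Usp17l sum lies between 23.8 and 25.4 CPM in KD and between 17.2 and 19.1 CPM in CON, and the array sum between 2.69 and 3.53 CPM in KD and between 1.32 and 1.87 CPM in CON.

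Tmem92, which encodes a small membrane protein and is used as a marker of 2C-like cells, had the largest fold change of the 9 tested genes. It lies on chromosome 11 (GRCm38, 94777217 to 94782703, reverse strand, 2187 exon bases) and shares 0.0% of its 100-base windows and 1.9% of its 50-base windows with other transcripts. The counts were 359, 334 and 331 in the KD libraries, against 71, 85 and 75 in the CON libraries. Every KD library had more than any CON library by a wide margin, and the spread within a group was small. The level was 8.47 ± 0.628 CPM in KD and 2.24 ± 0.138 CPM in CON, a rise of 3.77-fold (95% interval 3.09 to 4.6, SE 0.135 on the log2 scale, edgeR adjusted p = 7.84e-09). The log2 fold change of 1.91 moved between 1.85 and 2.14 over all alternatives.

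Tcstv1 and Tcstv3 belong to a family transcribed at the 2-cell stage whose products have been tied to telomere length in embryonic stem cells. They lie apart on chromosome 13, Tcstv1 at 119893388 to 119894785 on the reverse strand and Tcstv3 at 120316878 to 120318178 on the forward strand (GRCm38). Tcstv3 had 126, 158 and 117 counts in KD, against 56, 68 and 60 in CON. The groups were well apart, and the level was 3.3 ± 0.354 CPM in KD and 1.79 ± 0.124 CPM in CON. Tcstv3 rose 1.85-fold (95% interval 1.42 to 2.4, SE 0.178 around a log2 fold change of 0.88, edgeR adjusted p = 0.000449). Tcstv1 had 1, 0 and 3 counts in KD and 0, 0 and 0 in CON. A count of 3, the limit that a count of 0 allows, is worth 0.0701 to 0.082 CPM in KD and 0.0825 to 0.0922 CPM in CON, so no fold is given for Tcstv1.

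The Tcstv coding sequences are close enough that the split of reads matters. In an alignment of the GENCODE M21 coding sequences, 94.5% of the 507 columns without a gap were the same. The stretch below is the 60-base window in which the genes differ most, at the 9 positions in capitals (coding positions 394 to 453 of both), and it shows where a read can tell them apart.
Tcstv1: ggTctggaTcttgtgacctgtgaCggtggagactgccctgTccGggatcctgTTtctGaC
Tcstv3: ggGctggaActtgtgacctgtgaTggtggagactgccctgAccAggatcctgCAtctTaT
Other windows of that length had 0 differences. Of all 100-base windows of Tcstv3, 7.4% occur in Tcstv1 and 4.7% in Gm21818, a gene model on the same chromosome, and of its 50-base windows 17.9% and 19%. The sum of both genes was 3.33 ± 0.334 CPM in KD and 1.79 ± 0.124 CPM in CON, a ratio of 1.87. This sum does not depend on which gene of the pair a shared read was assigned to. It would change if shared reads were dropped or counted for both genes. It would also change if reads shared with Gm21818 or other genes outside the pair were assigned there. The treatment of shared reads is not stated.

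Of 6 related copies and gene models on chromosome 13, chosen after their values were seen, 4 rose and 2 did not pass. Over all genes tested, 32.2% rose and 30.8% fell. AF067061 had 59, 78 and 79 counts in KD and 31, 35 and 21 in CON (2.12-fold, edgeR adjusted p = 0.0022). BC147527 rose 1.53-fold (edgeR adjusted p = 0.0319), a call that did not hold under DESeq2 (0.0559) or without KD-1 (0.105), KD-3 (0.0556) or CON-1 (0.136), while AF067063 (1.59-fold, adjusted p = 0.13, and 0.0409 without KD-1) and D13Ertd608e (1.26-fold, adjusted p = 0.275) did not pass. Gm21761 rose 1.78-fold (edgeR adjusted p = 3.04e-07) and Gm21818 rose 1.46-fold (adjusted p = 0.00216).

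Zfp352, a zinc finger gene that marks the 2-cell stage, did not pass the test. It lies on chromosome 4 (GRCm38, 90218820 to 90225702, forward strand, 2276 exon bases). Its counts were 98, 96 and 114 in KD, against 86, 50 and 70 in CON. CON-1 lay above both KD-1 and KD-2 in CPM (2.52, against 2.34 and 2.24), so the groups overlapped. The level was 2.57 ± 0.479 CPM in KD and 2.02 ± 0.586 CPM in CON, a log2 fold change of 0.35 (95% interval -0.15 to 0.84, SE 0.231, edgeR adjusted p = 0.207). Under scaling by library size only it was 0.57 and passed (adjusted p = 0.0398).

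The Zfp352 promoter has a feature that the other 5 promoters lack (GRCm38.p6, chr4:90218570-90218869, forward strand). It is built of tandem repeats of about the same unit, and the capitals mark TAATCC, the core that homeodomains of the bicoid type bind.
Zfp352: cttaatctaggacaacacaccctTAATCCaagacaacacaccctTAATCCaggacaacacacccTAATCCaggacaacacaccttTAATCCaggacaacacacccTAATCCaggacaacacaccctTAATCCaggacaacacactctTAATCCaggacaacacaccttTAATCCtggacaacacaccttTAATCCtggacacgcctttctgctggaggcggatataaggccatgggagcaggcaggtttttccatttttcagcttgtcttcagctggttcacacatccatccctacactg
TAATCC stood 9 times in this window, more than in any other of the 32851 RefSeq promoters of the same length, of which 7.1% hold TAATCC at all on either strand. The search for this motif was chosen after the sequence was seen. The other 5 promoters that matched the 10 genes held 0 copies. A match is a stretch of letters and not a bound site.

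The Usp17l genes encode deubiquitinating enzymes, which remove ubiquitin from proteins, and several of them were first known as genes that cytokines induce in blood cells. The 5 copies are on chromosome 7 (GRCm38): Usp17ld at 103249737 to 103252505, Usp17lc at 103415072 to 103419880, Usp17le at 104768049 to 104777470, Usp17lb at 104840257 to 104842603 and Usp17la at 104857009 to 104862667. Of the 5, 2 rose (Usp17le and Usp17la), 0 fell and 3 did not pass, where 32.2% of all tested genes rose and 30.8% fell.

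Usp17le, the copy with most reads, had 367, 400 and 398 counts in KD and 190, 238 and 149 in CON. The groups were apart, at 9.66 ± 1.1 CPM in KD and 5.57 ± 0.983 CPM in CON. It rose 1.73-fold (95% interval 1.41 to 2.12, SE 0.137 around a log2 fold change of 0.79, edgeR adjusted p = 0.000123). Usp17la had 188, 206 and 168 counts in KD and 125, 74 and 82 in CON. Its KD libraries were close together, CON-1 was the highest of the CON libraries, and the groups did not overlap. The level was 4.63 ± 0.167 CPM in KD and 2.74 ± 0.839 CPM in CON, a rise of 1.69-fold (95% interval 1.28 to 2.24, SE 0.189 around a log2 fold change of 0.76, edgeR adjusted p = 0.00253).

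Usp17lb lies between the copies that rose, 62.8 kb from Usp17le and 14.4 kb from Usp17la. It had 190, 170 and 134 counts in KD and 179, 161 and 124 in CON, and after scaling 4.53, 3.97 and 3.66 CPM in KD and 5.25, 4.43 and 3.81 CPM in CON. The groups overlapped, with a log2 fold change of -0.15 (95% interval -0.48 to 0.18, SE 0.156, edgeR adjusted p = 0.427) that turned to 0.08 (adjusted p = 0.669) under scaling by library size only. As a ratio of counts within a library, which needs no scaling, Usp17le over Usp17lb was 1.93, 2.35 and 2.97 in KD and 1.06, 1.48 and 1.2 in CON. Usp17la over Usp17lb was 0.989, 1.21 and 1.25 in KD and 0.698, 0.46 and 0.661 in CON. Both ratios were higher in each KD library than in each CON library. They were chosen after the values were seen and are given with no test.

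Usp17lc and Usp17ld, the pair farthest from the others, did not pass. Usp17lc had 177, 227 and 159 counts in KD and 110, 126 and 155 in CON. CON-3, at 4.76 CPM, lay above KD-1 and KD-3, and the log2 fold change was 0.28 (95% interval -0.08 to 0.64, SE 0.169, edgeR adjusted p = 0.163). It passed without CON-3 (0.46, adjusted p = 0.0351) and under scaling by library size only (0.51, adjusted p = 0.015). Usp17ld had 74, 68 and 69 counts in KD and 47, 53 and 49 in CON. The groups of Usp17ld did not overlap (1.75 ± 0.15 CPM in KD and 1.45 ± 0.064 CPM in CON), but its log2 fold change of 0.27 did not pass (95% interval -0.18 to 0.72, SE 0.212, edgeR adjusted p = 0.287).

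**Figure D3:**
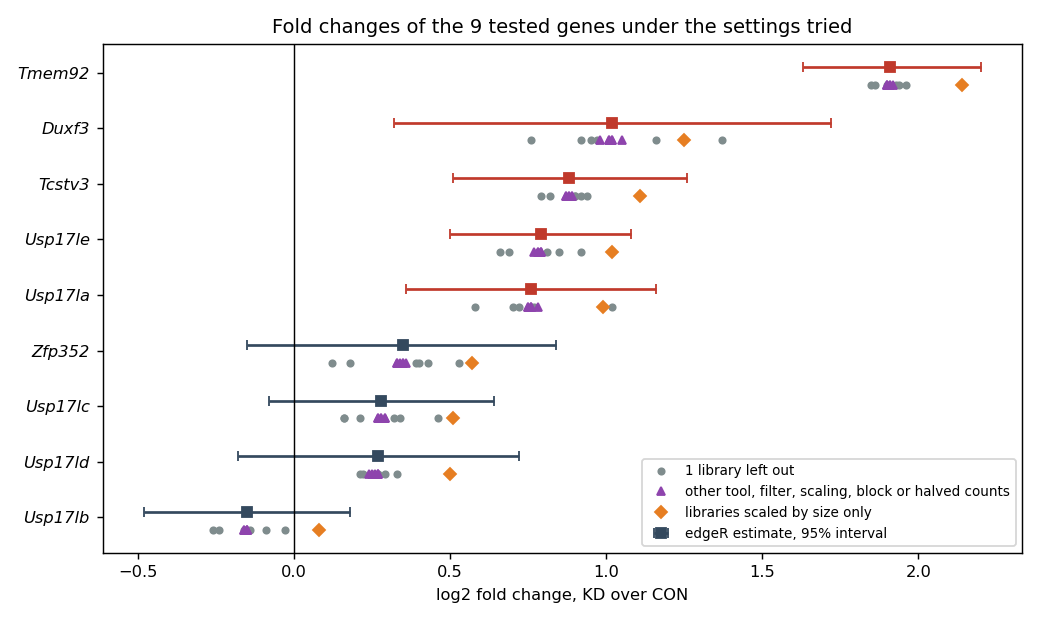
Log2 fold change, KD over CON, of the 9 tested genes (horizontal axis), with its 95% interval; red squares are genes that rose at edgeR adjusted p under 0.05, dark squares genes that did not pass, and small points the values under each alternative. The intervals of Duxf3, Tcstv3, Tmem92, Usp17la and Usp17le lie above 0, and that of Tmem92 (1.63 to 2.2) lies above the estimates of the other genes.

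The sequences show which copies reads can tell apart. Usp17lc and Usp17ld had 98.4% coding identity over aligned bases without gaps, and the other pairs had 90.7% to 94.5%. Of 1404 alignment columns without a gap, 198 differed among the 5 copies. The window in which most columns differ is printed for each copy, with its 20 differing positions in capitals (coding positions 1401 to 1460 in Usp17ld and Usp17lc, 1446 to 1505 in Usp17le, 1341 to 1400 in Usp17lb and 1344 to 1403 in Usp17la).
Usp17ld: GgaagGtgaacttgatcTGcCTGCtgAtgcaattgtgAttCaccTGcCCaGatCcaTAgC
Usp17lc: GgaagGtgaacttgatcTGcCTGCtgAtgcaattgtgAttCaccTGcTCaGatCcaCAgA
Usp17le: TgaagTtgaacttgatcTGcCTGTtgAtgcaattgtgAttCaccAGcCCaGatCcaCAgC
Usp17lb: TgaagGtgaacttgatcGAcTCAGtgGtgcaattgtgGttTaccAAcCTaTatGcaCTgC
Usp17la: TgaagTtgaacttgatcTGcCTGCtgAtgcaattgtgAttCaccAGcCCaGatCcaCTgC
Usp17lb, the copy with the negative log2 fold change, had the lowest such identity to the others, at 90.7% to 91.9%, and the shortest coding sequence (1404 bases). Of all 100-base windows, 39.5% in Usp17ld and 32.3% in Usp17lc occur in the other gene of the pair, against 3.8% shared with any transcript in Usp17la, 8.2% in Usp17le and 10.3% in Usp17lb. Of 50-base windows, 50.4% of Usp17ld and 41.5% of Usp17lc occur in the other gene of the pair, against 20.1% shared with any transcript in Usp17la, 29.8% in Usp17le and 21.4% in Usp17lb. Values of all 5 as single copies are therefore uncertain, those of Usp17lc and Usp17ld most.

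Summed over the 5 copies, the Usp17l level was 23.8, 25 and 25.4 CPM in KD and 19.1, 17.9 and 17.2 CPM in CON, with means of 24.7 ± 0.847 in KD and 18.1 ± 0.969 in CON and a ratio of 1.37. Without Usp17le the sum was 15.1 ± 0.596 CPM in KD and 12.5 ± 1.08 CPM in CON, a ratio of 1.2. Usp17le made up 39 ± 3.35% of the family's counts in KD and 30.8 ± 5.11% in CON. Usp17lb made up 16.5 ± 2.37% in KD and 24.8 ± 2.66% in CON, and its KD libraries all lay below its CON libraries.

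The promoters of the adjacent pair Usp17lb and Usp17la are printed because these neighbours had different calls. Capitals mark TATAA, the core of a TATA box, and CCAAT or its reverse ATTGG (GRCm38.p6, Usp17lb chr7:104842534-104842833, reverse strand, and Usp17la chr7:104856766-104857065, forward strand).
Usp17lb: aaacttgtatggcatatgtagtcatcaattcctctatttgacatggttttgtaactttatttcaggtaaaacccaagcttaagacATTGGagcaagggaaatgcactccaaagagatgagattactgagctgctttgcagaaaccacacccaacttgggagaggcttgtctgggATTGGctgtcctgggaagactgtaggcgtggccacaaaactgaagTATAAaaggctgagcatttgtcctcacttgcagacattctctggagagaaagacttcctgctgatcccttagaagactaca
Usp17la: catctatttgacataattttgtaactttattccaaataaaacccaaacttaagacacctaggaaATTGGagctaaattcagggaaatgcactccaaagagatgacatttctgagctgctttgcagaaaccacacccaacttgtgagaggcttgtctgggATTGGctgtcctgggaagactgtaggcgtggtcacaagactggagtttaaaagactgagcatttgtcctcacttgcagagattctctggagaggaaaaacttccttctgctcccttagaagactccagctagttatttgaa
The promoters had 92.2% identity over 270 aligned bases without gaps, and 75.5% with gaps counted as differences. Both held 2 matches to CCAAT, which 37.4% of all promoters of that length hold on either strand. Usp17lb held 1 TATAA and Usp17la 0, and 17.5% of all promoters hold one. Usp17lc and Usp17ld each held 1 TATAA, as Usp17lb did, and both motifs were chosen after the sequences were seen. Usp17le has no entry in the promoter table.

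The tested neighbours of the 10 genes are given beside them, with the 10 themselves left out of the counts. Within 500 kb of Tmem92, 14 of 28 other tested genes rose and 4 fell. Around Tcstv3, 5 of 11 rose and 0 fell, and around Tcstv1, 8 of 20 rose and 3 fell. Near Duxf3, 2 of 8 rose and 3 fell, and near Usp17la 2 of 3 rose and 0 fell. Apart from the 10 genes, no tested gene lay within 500 kb of Zfp352, Usp17lc or Usp17ld. These counts overlap between neighbours of 1 locus and were not tested against the background of 32.2% and 30.8%.

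Other genes of the 2-cell stage did not share 1 direction in KD. Of 68 entries on that list, 46 were tested, of which 12 rose, 14 fell and 20 missed the threshold, where 32.2% of all tested genes rose and 30.8% fell. These shares are near the background. Their median log2 fold change was 0.1, and 0.33 under scaling by library size only. All 6 Zscan4 genes rose, with log2 fold changes from 1.09 to 1.74, and they make up 6 of the 12 that rose. The sequence that these copies share was not measured, so their 6 calls may not be separate observations. Zscan4d, which encodes a SCAN and zinc finger protein and marks 2C-like cells, rose 2.92-fold to 12.7 ± 0.739 CPM in KD, against 4.34 ± 0.208 CPM in CON (edgeR adjusted p = 7.1e-09). Its neighbours Zscan4c and Zscan4f rose 2.21-fold and 2.17-fold (adjusted p = 2.24e-07 and 7.48e-06). Pramef12, of the PRAME family, was the most abundant gene of the list that rose, at 128 ± 6.81 CPM in KD and 90.9 ± 1.05 CPM in CON (1.41-fold, edgeR adjusted p = 4.37e-07).

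The genes of the list that fell came from several families. Fbxo15, an F-box gene and target of the pluripotency factors, fell 2.54-fold to 89.3 ± 9.41 CPM in KD, against 226 ± 5.86 CPM in CON (edgeR adjusted p = 7.76e-11). Calcoco2, an autophagy receptor gene, fell 1.98-fold to 34.9 ± 0.437 CPM in KD, against 69.2 ± 4.07 CPM in CON (adjusted p = 1.48e-09). Phf11d fell 2.08-fold (adjusted p = 2.22e-07), and Pramel7, a PRAME gene of the inner cell mass, fell 7.79-fold to 0.289 ± 0.213 CPM in KD, against 2.32 ± 0.387 CPM in CON (adjusted p = 4.64e-06). By family, 3 of 5 tested genes with a Pramef or Pramel symbol fell and 1 rose. Of 3 tested Trim43 and Trim75 genes 2 fell and 0 rose. Gene models with clone names were counted apart, and any PRAME genes among them are not in the count of 5. Of 14 tested gene models 2 rose and 1 fell, and of 8 single genes 1 rose and 4 fell. Of 3 Phf11 genes 2 fell, of 2 Tdpoz genes 1 fell, and the 1 tested Obox gene fell. At the Tcstv locus 2 of 4 genes rose and 0 fell. Over all genes tested 30.8% fell and 32.2% rose, and these small families were not tested against those shares.

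**Figure D4:**
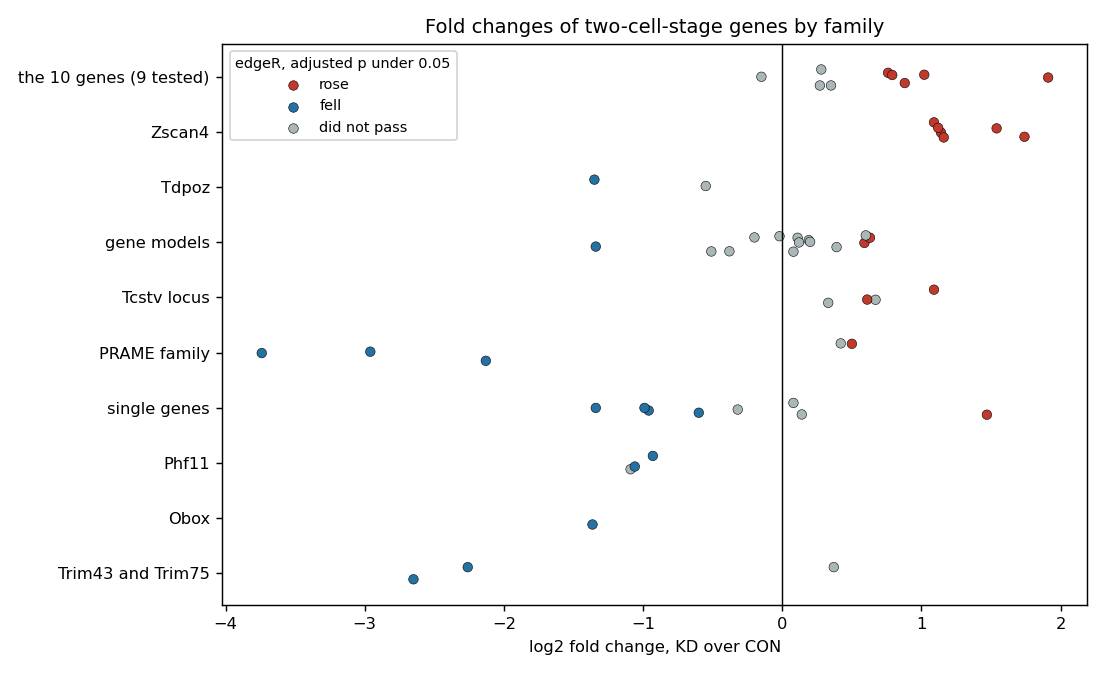
Log2 fold change, KD over CON (horizontal axis), of the 9 tested genes and of the other tested 2-cell-stage genes by family (rows), with 1 point per gene; red points rose, blue points fell and grey points did not pass at edgeR adjusted p under 0.05. The 6 Zscan4 points lie between 1.09 and 1.74, while the PRAME, Phf11 and Trim rows hold points that fell. The PRAME row holds only genes with a Pramef or Pramel symbol. The 14 gene models have a median of 0.12.

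The genes of this list whose pattern over the 6 libraries was nearest to that of Duxf3 were Zscan4e, Zscan4f and Trim75. Likeness was the root mean square difference of centred log2 CPM, over 46 genes and 6 libraries, and came to 0.28 for Zscan4e, 0.29 for Zscan4f and 0.35 for Trim75. Zscan4e had 6.9 ± 0.233 CPM in KD and 3.09 ± 0.728 CPM in CON, a rise of 2.24-fold (edgeR adjusted p = 1.25e-05). Trim75 differed 1.29-fold and did not pass (adjusted p = 0.321). All of these values share libraries and the group difference.

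Regulators of the 2C state fell on both sides. Of 20 tested genes on the list of activators of Dux or the 2C state, 4 rose and 16 fell, beside 32.2% and 30.8% of all tested genes, and the list's median log2 fold change was -0.59, beside 0.02. The 4 that rose were Zscan4c, Zscan4d and Zscan4f, which are also on the 2-cell list, and Spop, a ubiquitin ligase adaptor, by 1.1-fold (125 ± 7.8 CPM in KD and 114 ± 4.85 CPM in CON, edgeR adjusted p = 0.0411). The call of Spop held in 5 of 13 alternatives, with adjusted p from 2.91e-05 to 0.208, and was lost under DESeq2 (0.0748), its size factors (0.0607) and without KD-2, KD-3 or any single CON library (0.0522 to 0.208). Klf5, a Krüppel-like transcription factor of naive stem cells, fell 5.09-fold to 120 ± 8.84 CPM in KD, against 610 ± 18.7 CPM in CON (adjusted p = 4.81e-14). Tbx3, Tet1 and Tet2 fell 2.8-fold, 2.89-fold and 3.09-fold. The list was drawn up for this report. Whether its genes, Tet1 and Tet2 among them, activate the 2C state in these cells was not tested.

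Of 58 genes on the list of silencers of Dux or the 2C state, 45 fell, 5 rose and 8 missed the threshold, beside 30.8% that fell and 32.2% that rose of all tested genes, and their median log2 fold change was -0.56. Trim28, the corepressor that zinc finger proteins recruit to retroviral elements, fell 2.31-fold to 917 ± 43.4 CPM in KD, against 2120 ± 62.3 CPM in CON (edgeR adjusted p = 3.38e-12). Lin28a, an RNA-binding protein that works with nucleolin at the Dux locus, fell 2.84-fold to 140 ± 6.87 CPM in KD, against 398 ± 4.32 CPM in CON (adjusted p = 6.55e-13). Zfp42 fell 4.2-fold and Nop56, a core protein of box C/D snoRNPs, fell 2.14-fold. Lin28a and Zfp42 are also on the list of embryonic stem cell markers below. The largest rises by p were those of Suv39h1 (1.45-fold), Atf7ip (1.26-fold), Ring1 (1.37-fold) and Ehmt1 (1.13-fold), all with parts in repressive chromatin. Under scaling by library size only, 11 of the silencers rose.

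Markers of cell types were counted in the same way, beside 63% of all tested genes that passed. All 10 embryonic stem cell markers were detected and fell (median log2 fold change -1.63), with a summed level of 1750 to 1860 CPM in KD and 5840 to 5900 CPM in CON. Of 8 neuronal markers 7 had a row, and 4 rose and 2 fell (summed 88.2 to 96.2 CPM in KD and 147 to 150 in CON). Of 10 fibroblast markers 8 had a row and 5 were tested, and 3 rose and 2 fell. The 8 summed to 60.8 to 66.5 CPM in KD and 36 to 40.6 in CON. Of those not tested, Col3a1 averaged 0.0182 CPM in KD and 0.0682 in CON, and S100a4 averaged 0 in KD and 0.0205 in CON. Postn, also not tested, went the other way, at 0.217 CPM in KD and 0.078 in CON. Of 8 primitive endoderm markers 2 rose, 1 fell and 5 did not pass, with overlapping sums (45.5 to 47 CPM in KD and 46.1 to 51.5 in CON), and of 8 trophectoderm markers 2 rose and 5 fell (1070 to 1110 CPM in KD and 1130 to 1190 in CON). The part of these markers in the values of the 10 genes was not tested.

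In the authors' deposited table, whose log2 fold change runs CON over KD, Duxf3 had -1.01 (FDR 0.0471) and Tmem92 -1.91 (FDR 5.08e-25), and both are labelled as lower in CON. In the authors' deposited table the 2906 labelled genes all have an absolute log2 fold change of at least 1, and Tcstv3 (-0.87, FDR 0.00125), Usp17le (-0.78, FDR 1.05e-05) and Usp17la (-0.75, FDR 0.00434) carry no such label.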

How the data were processed

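RNA was measured in 3 KD and 3 CON libraries of E14 cells. Per the submitters' processing notes, FastQC 0.11.9, STAR 2.5.3a, featureCounts and the build mm10 were used. The sources used here do not give the annotation release, strand setting, read length or treatment of multi-mapping reads.

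The authors deposited raw counts for 31641 genes, per the file headers, and FPKM values that scale them by length and depth. Lengths implied by the authors' FPKM equalled GENCODE M21 exon bases for all 10 genes, and were within 1% for 98.4% of 14174 genes with at least 50 counts in KD-1. The deposited log2 fold change and FDR (adjusted p-value) of the authors come from a test that no source used here states. Columns were matched to samples by treatment and number, and 0 were left unmatched. Symbols turned into dates were restored for 26 genes.

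Of the deposited counts from 1 to 20, 70 to 71.7% were even in each library, an excess that arises when the mates of a pair are counted separately. Low counts may then stand for fewer fragments. Floors cover counting error only, while the 95% intervals of fold changes come from the edgeR fit and include the spread between libraries.

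Counts were fitted with edgeR 4.0.16 in R 4.3.3 (filterByExpr, TMM factors of 1.08 to 1.084 in KD and 0.9222 to 0.9265 in CON, robust quasi-likelihood F-test, no replicate block) over 18019 genes. SE is the size of the log2 fold change over the square root of F. The script was tested on simulated counts. CPM sums over copies and shares have no test. Alternatives were libraries scaled by size, DESeq2 1.42.0 and its size factors, other filters, a replicate block, counts divided by 2 and each library left out. Coding sequences (GENCODE M21) were aligned with MAFFT 7.526 in place of proteins, for which no table was used here. Promoters are from RefSeq (GRCm38.p6), in which 6 of the 10 genes matched.

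Named genes are the 10, Nat10, in each list up to 4 that rose and 4 that fell, by smallest p, and the 3 nearest to Duxf3. Genes that fall outside this rule were chosen after their values were seen. The 10 genes and all lists were chosen with earlier results of these data known.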

Additional observations from a re-analysis of the deposited data

How the results depend on the processing

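Of the 10 genes, 4 to 7 rose under the 13 alternatives (5 as reported, and 4 to 6 with 1 library left out), and 0 fell under any. Tcstv3, Tmem92, Usp17la and Usp17le passed under all 13, and Duxf3 under all but the fit without CON-2. Over all genes, 5247 to 5944 rose and 5136 to 5862 fell with 1 library left out. Scaling by library size only, which raised the median log2 fold change of all genes by 0.229, gave 8280 genes that rose and 3535 that fell (5801 and 5543 as reported). Under it Usp17lb turned to a log2 fold change of 0.08, 11 silencers rose (5 as reported), and 1 gene of the Dux list rose (0 as reported; 0 to 1 with 1 library left out). With at least 1 CPM required in 3 libraries, which tests fewer genes, 9 of the other 2-cell-stage genes fell (14 as reported). The log2 ratio of the summed Usp17l level was 0.27 without Usp17le and 0.45 with it, and 1 promoter held a single arm of the motif while 0 held all of it. Where scaling or a left-out library moved a call, the cause was not tested.

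Replicate numbers are shared between groups, but same-numbered libraries did not deviate together (correlations of -0.0608, 0.0151 and -0.0387). KD-3 and CON-1, which differ in number, had 0.0841. Such correlations cannot exclude that same-numbered libraries shared a culture or a preparation. With a replicate block, 5559 genes rose and 5347 fell, the 10 genes gave the same count of 5, and Duxf3 had a log2 fold change of 1.05 (edgeR adjusted p = 0.0105). The block ended the calls of Spop (0.0583) and BC147527 (0.0501). Depth limits Duxf3 and Tcstv1 most, and a difference in Tcstv1 was not detectable at this depth.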

Other observations

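Duxf3 had an odd count in each of the 6 libraries and Zfp352 an even count in each, in libraries where 70 to 71.7% of counts from 1 to 20 were even. With counts divided by 2 and rounded up, Duxf3 had a log2 fold change of 0.98 (edgeR adjusted p = 0.0105).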
